A study of Drosophila melanogaster with 3 samples.

Results

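The regions described here are the Aef1 binding regions of the Drosophila melanogaster autosomes whose summit lies inside an intron of a protein-coding gene, more than 500 bp and at most 3000 bp from the nearest protein-coding transcript start. There were 384 of them, among 2359 autosomal regions and 2969 regions in all that held peaks from 2 or more replicates, and among 4290 regions with a peak in any replicate. They were found by merging the thresholded peak lists of the 3 replicates wherever peaks shared at least 1 bp, and by taking the median of the replicates' summits. The members were thus chosen by the replicates' peak calls and by position, so both are given below as descriptions and not as results.

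The series holds 1 group of 3 biological replicates and no second group. Each is chromatin immunoprecipitation with sequencing from whole embryos aged 0 to 24 h of the strain Aef1-GFP, which carries an Aef1-eGFP fusion as a transgene, and an antibody against GFP was used. The promoter that drives the fusion and the presence of the native protein are unknown here, and a whole embryo mixes all its cell types over all of embryogenesis. Binding in untagged or input chromatin was not analysed here, so no background level stands beside the values. The thresholded lists held 3495, 3126 and 2942 peaks in replicates 1, 2 and 3, and their largest irreproducible discovery rate (IDR, a measure of how badly the order of peaks repeats between 2 peak calls) was 0.0100. Read depth was not part of the lists and is unknown.

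Aef1, Adult enhancer factor 1, is a zinc finger protein that was first described as a repressor at fat body enhancers, where it recognises repeats of the word CAACAA. Introns close to a start often hold enhancers and, in genes with several starts, alternative promoters. In flies the first intron is usually the longest and the richest in such elements.

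Sequences of 8 member summits are shown, 4 for their strength and 4 for their content of the Aef1 word. Each is the 101 bp centred on the summit, from the RefSeq copy of the dm6 genome, plus strand, 5′ to 3′. The first 4 are among the strongest members by rank, with TTAAAA or its reverse complement TTTTAA and CAACAA or its reverse complement TTGTTG in capitals. The last 4 are the members off arm R of chromosome 2 with most CAACAA words, with only those words in capitals. The windows lie at chr2L:6612661-6612761 (CG11050), chr3L:14759460-14759560 (Trl), chr2L:3302164-3302264 (CG9663), chr2L:16351172-16351272 (chif), chr2L:16521349-16521449 (CG5953), chr3R:29458095-29458195 (Ptp99A), chr2L:2889001-2889101 (lilli) and chr2L:9759041-9759141 (zf30C).
CG11050: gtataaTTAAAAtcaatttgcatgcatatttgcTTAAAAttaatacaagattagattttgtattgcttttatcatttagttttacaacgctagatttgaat
Trl: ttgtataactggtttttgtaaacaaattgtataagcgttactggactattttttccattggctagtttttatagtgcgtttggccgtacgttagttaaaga
CG9663: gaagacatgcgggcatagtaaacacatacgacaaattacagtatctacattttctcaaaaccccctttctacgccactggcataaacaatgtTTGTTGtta
chif: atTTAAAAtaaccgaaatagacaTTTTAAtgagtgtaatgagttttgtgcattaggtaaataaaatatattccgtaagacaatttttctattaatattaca
CG5953: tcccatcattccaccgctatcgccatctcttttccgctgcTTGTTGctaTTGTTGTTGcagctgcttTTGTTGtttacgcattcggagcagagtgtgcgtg
Ptp99A: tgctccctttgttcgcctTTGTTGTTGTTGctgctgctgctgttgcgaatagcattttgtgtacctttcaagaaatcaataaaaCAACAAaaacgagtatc
lilli: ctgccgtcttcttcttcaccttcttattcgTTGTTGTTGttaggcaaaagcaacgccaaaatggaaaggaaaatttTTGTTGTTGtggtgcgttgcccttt
zf30C: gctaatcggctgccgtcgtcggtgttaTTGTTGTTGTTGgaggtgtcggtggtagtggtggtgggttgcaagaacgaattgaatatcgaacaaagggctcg
The GC share of the first 4 windows runs from 21.8% to 38.6%, and that of the last 4 from 39.6% to 51.5%. Of the first 4, CG11050 and chif hold TTAAAA 2 times each, Trl holds neither word, and CG9663 holds 1 CAACAA word near its right end.

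The members were spread over the long autosomal arms and were mostly found in all replicates. Peaks from 3 replicates made up 278 members (72.4%), beside 70% of all autosomal regions. The other members had peaks in replicates 1 and 2 (54), 1 and 3 (30) or 2 and 3 (22). Of these 106 members, 100 had a peak in the unthresholded ranked list of the missing replicate, and for 41 of the 100 that peak had an IDR of 0.05 or below. The 4 thresholded lists made by the authors for the series as a whole all held a peak at 365 members (95.1%), beside 93.4% of all autosomal regions. Arm 3R held 119 members, 3L 99, 2R 84, 2L 82 and chromosome 4 held 0.

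The members were compact. Their median width was 337 bp, from 131 to 761 bp, and the summits of the replicates' peaks lay within a median of 30 bp of each other. The introns that held them had a median length of 5255 bp, from 140 bp to 78340 bp. A summit fell on an annotated transposon in 1 member and on an exon of a noncoding gene in 9.

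Strength was compared as a rank within each replicate's list, because the deposited peak signal has no stated scale. The median member stood 42.4% down the list of replicate 1, 47.2% down that of replicate 2 and 44.4% down that of replicate 3. The members therefore covered the range of the lists from near the top to near the bottom. Their signal had a median of 82.4 (37.0 to 1185) in replicate 1, 67.6 (31.5 to 945) in replicate 2 and 70.8 (31.0 to 892) in replicate 3.

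The strongest member lay in CG11050, 1024 bp from its start, with a signal of 1185, 945 and 892 in replicates 1, 2 and 3 and rank 3, 4 and 4. The shortest annotated intron around its summit was 140 bp long, less than the region's width of 337 bp. Adf1, which encodes a transcription factor first found at the Adh gene, held the next strongest member, with 967, 852 and 720, at ranks 6, 7 and 8. The third was an intron shared by HmgZ and HmgD, genes of DNA-bending HMG box proteins, with 774, 766 and 646. Trl, which encodes the GAGA factor, a protein that opens chromatin at GA repeats, held the fourth, with 534, 502 and 489 at ranks 42, 29 and 26. The first 3 stood in the same order in every replicate, while CG9663 and CG12769 stood above Trl in replicate 1.

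The signals of the other 8 ranged from 248 to 549. CG9663 had 549, 429 and 355, and CG12769 had 549, 403 and 344. KCNQ, the gene of a voltage-gated potassium channel, had 411, 374 and 352, and the nearest start there was that of mlt, 766 bp away. CG9837 had 442, 377 and 264. In each of these members replicate 1 had the highest signal and replicate 3 the lowest. In chif, the gene of a partner of the replication kinase Cdc7, the signal was 345, 328 and 295. The chif intron also belongs to Hyls1, which encodes a centriole protein. MYPT-75D, the gene of a myosin phosphatase targeting subunit, had 360, 316 and 267. CG4496 had 344, 322 and 248. Csk, the gene of the kinase that restrains Src, had 352, 281 and 278. CG9663 was the only one of the 12 with a CAACAA word within 50 bp of its summit.

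**Figure D1:**
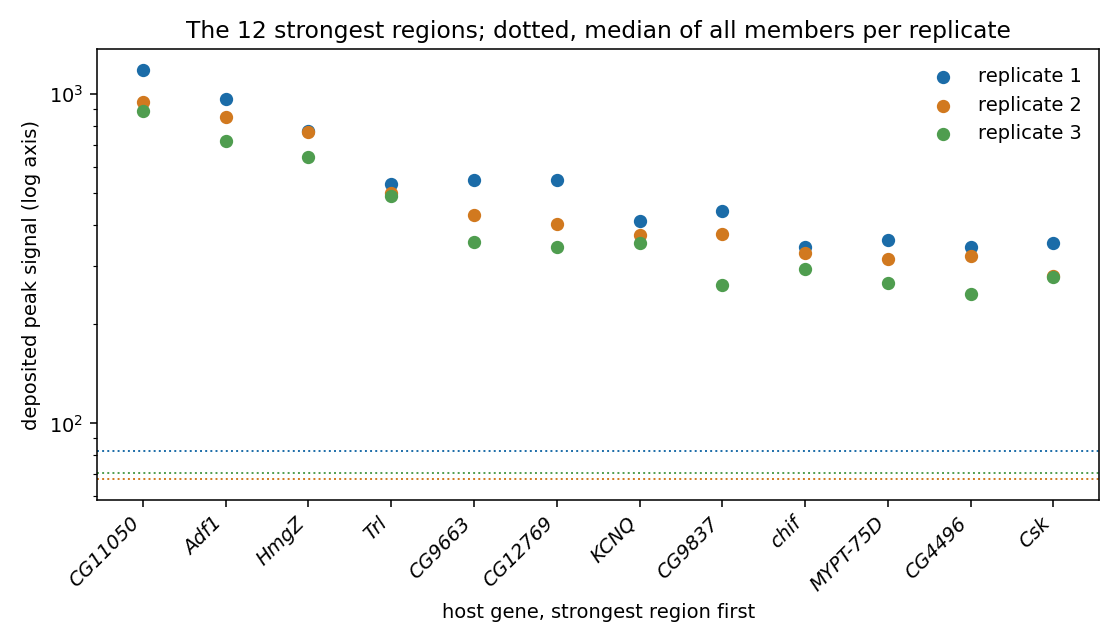
Deposited peak signal (log axis, the authors' scale) of the 12 strongest members in replicates 1, 2 and 3, by host gene, with dotted lines at the median of all members in each replicate (82.4, 67.6 and 70.8). CG11050, Adf1 and HmgZ stand at 646 or above in every replicate, and the lowest of the points is 248.

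Members were most frequent close to the start and on sequence nearest to a start of the same gene. The autosomes held 12.2 Mb of intron that met the rule on distance, so there were 31.4 members per Mb. The number per Mb was 53.9 (95% Poisson interval 43.3 to 66.3, counting error only) at 501 to 750 bp and 45.1 (35.2 to 57.0) at 751 to 1000 bp. It was 27.2 (18.4 to 38.5) at 1751 to 2000 bp and 12.8 (6.60 to 22.3) at 2501 to 2750 bp. The last bin, 2751 to 3000 bp, had 16.8 (9.39 to 27.7), and the intervals of the last 4 bins overlap. The median member lay 1140.5 bp from its start. Just inside the limits were wkd (501 bp), CG31612 (502 bp), kis and siz (both 2975 bp), and just outside them were aru (500 bp), pAbp (499 bp), CG10011 (3044 bp) and tna (3052 bp). Their mean ranks ran from 6.40% down the lists (CG31612) to 70.3% (CG10011), with members and neighbours mixed.

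**Figure D2:**
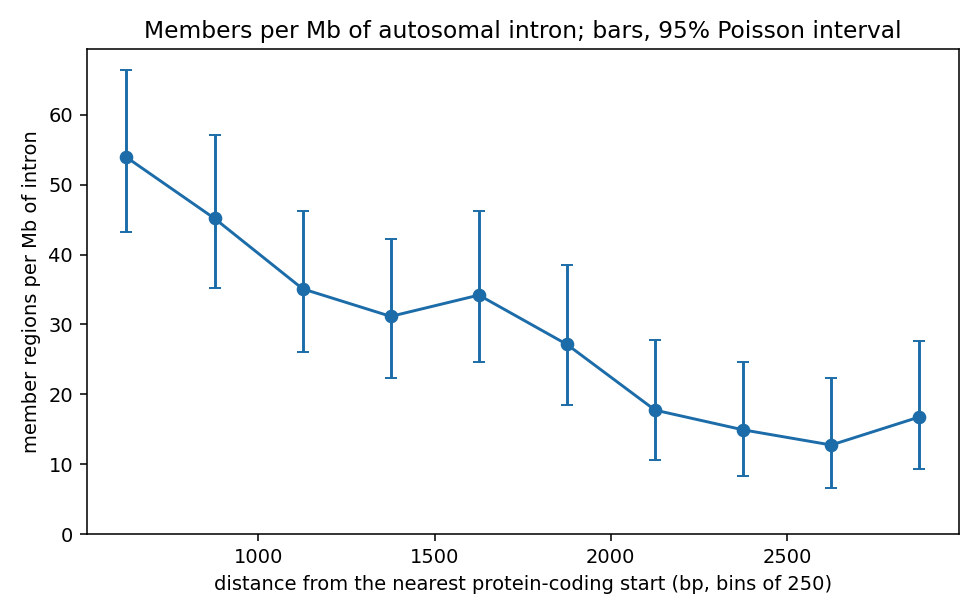
Members per Mb of autosomal intron against the distance from the nearest protein-coding start, in bins of 250 bp, with 95% Poisson intervals. The density falls from 53.9 per Mb in the nearest bin to 12.8 per Mb at 2501 to 2750 bp.

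The nearest start belonged to the host gene itself in 357 members (93.0%). In 251 of these the summit lay downstream of the start, and in 106 it lay upstream, in an intron of a longer transcript and ahead of an internal start. Upstream members numbered 49.4 per Mb (95% Poisson interval 40.5 to 59.8) over 2.14 Mb of such sequence. Downstream members numbered 33.6 per Mb (29.6 to 38.0) over 7.47 Mb. Intron nearest to the start of another gene, 2.60 Mb, held 27 members, or 10.4 per Mb (6.84 to 15.1). The intervals cover counting error only, take members as independent and were not used as a test. The 3 kinds of intron were not matched for distance to the start. Among the 12 strongest, HmgZ, CG12769, CG9837, chif, MYPT-75D and CG4496 lay upstream of an internal start of their host.

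**Figure D3:**
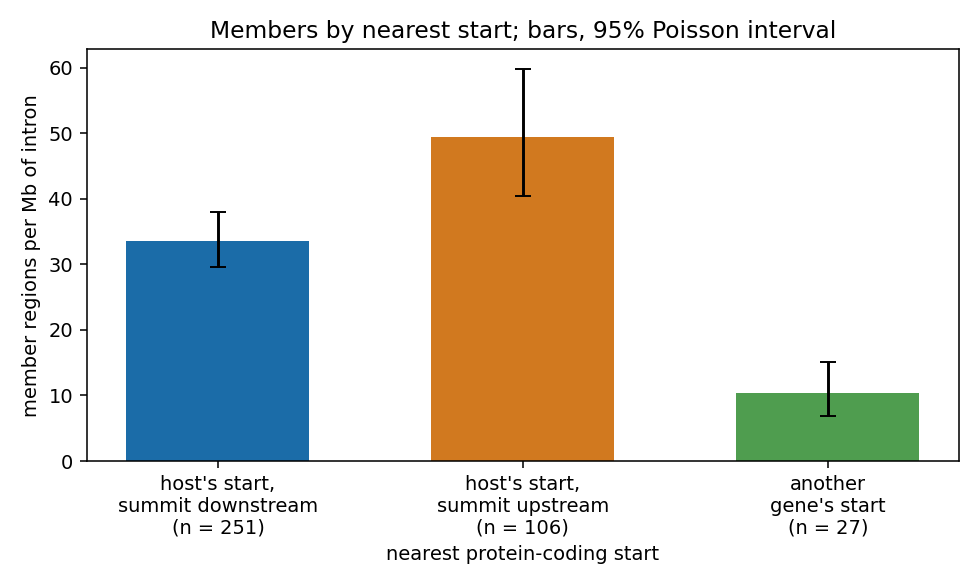
Members per Mb of autosomal intron by whose start is nearest and on which side of it the summit lies, with 95% Poisson intervals. Intron ahead of an internal start of the host gene held 49.4 members per Mb, and intron nearest to another gene's start held 10.4.

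First introns held most members. The summit was in the first intron of at least 1 host transcript in 324 members (84.4%), while first introns made up 62.7% of the intronic sequence that met the rule. It was in the first intron of every transcript that held it in 223 members (58.1%). First and other introns were not matched for distance to the start, and members were most frequent close to it. A region at the promoter of the nearest start was also found for 76 members (19.8%). The share was 17.5% in all autosomal regions away from promoters and 16.8% in intronic regions farther than 3000 bp from a start. These shares come from the same peak calls as the rule, and members with the same nearest start were each counted. The shares are therefore given with no test. For the other members no promoter region in 2 or more replicates stood at their nearest start.

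The members fell in 345 genes, counting every gene whose intron held a summit, which is 4.48% of the 7704 autosomal genes with intron that met the rule. With 1 host per member there were 319 genes, of which 269 held 1 member, 41 held 2 and 9 held 3 or more. Host genes had more sequence for the rule to act on, with a median of 5252 bp beside 417 bp over all 7704 genes. The part of this difference in which genes were hosts was not tested.

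The gene with most members was shn (schnurri), which encodes a large zinc finger partner of the Smads in Dpp signalling. It held 8 members within 11184361 to 11207407 of arm 2R (dm6), and it has 5 annotated starts and 22132 bp of intron that met the rule. Of the 8, 6 had peaks in 3 replicates, and 4 had a CAACAA word within 50 bp of the summit. Their mean ranks ran from 28.4% to 71.4% down the lists, so none was among the strongest 20% of regions. The strongest of the 8, 731 bp ahead of an internal start, had a signal of 77.7, 127 and 107 in replicates 1, 2 and 3.

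CG32264 held 4 members, the strongest of which had a signal of 210, 181 and 182. Diap1, the gene of the main caspase inhibitor, held 3, with mean ranks from 38.3% to 69.6%. Prps, the gene of phosphoribosyl pyrophosphate synthetase, held 3 within 9692336 to 9693925 of arm 3L, all in 1 intron of 4784 bp. Only the middle one of these had peaks in 3 replicates, with a signal of 139, 97.8 and 109. HmgZ held 3, of which the one described above was by far the strongest. The member with a mean rank of 71.0% also lay in an intron of HmgD. For the member with a mean rank of 53.4% the nearest start was that of HmgD, 646 bp away. The genes pum and shep, both for RNA-binding proteins, Shrm, for an actin-binding protein, and tou, for a chromatin protein, held 3 each. All 3 members of pum and of tou had peaks in 3 replicates. Shrm had 2 such members and shep 1. None of the members in CG32264, Diap1, HmgZ, pum, shep or tou held a CAACAA word near its summit, while Prps and Shrm had 1 such member each.

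Of 361 listed developmental, signalling, chromatin and neural genes with intron that met the rule, 52 hosted a member (14.4%), beside 4.48% of all genes. The listed genes have long introns, and per Mb of their sequence there were 41.9 members (95% Poisson interval 32.5 to 53.3), beside 31.4 (28.4 to 34.7) over all genes. The lists were chosen with earlier results of these data known and are described by counts alone.

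Chromatin and transcription regulators were hosts in 7 of 37 genes, with 10 members and 115 per Mb (54.9 to 211). They included Trl, HDAC1, the gene of a histone deacetylase (signal rank 530, 434 and 210 in replicates 1, 2 and 3), and CtBP, the gene of a corepressor (433, 359 and 607). Other hosts of that list were kis, psq, brm and pnt. For the member in brm the nearest start was that of CG17028, 716 bp away. Insulin, TOR and growth control genes were hosts in 4 of 23, among them S6k, a kinase downstream of TOR (ranks 691, 402 and 323), the lipase gene bmm (846, 717 and 1398) and mats, a cofactor of the Hippo pathway kinases (1745, 1527 and 2271). The insulin receptor gene InR had a peak in replicates 1 and 2 only, at ranks 1991 and 2592.

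Genes of EGFR, FGF and Ras signalling were hosts in 6 of 27, with 64.3 members per Mb (25.9 to 133). By role these were the FGF ligand gene ths (ranks 391, 412 and 436), S (Star), needed to export EGFR ligands (550, 558 and 616), the adaptor gene drk (640, 657 and 681), the inhibitor gene sty (1008, 922 and 1087), and the ETS factor genes aop (591, 523 and 527) and pnt (1949, 2922 and 2004). The repressor aop thus ranked well above the activator pnt in each replicate. The list for Hedgehog, TGF-β and JAK/STAT signalling had 64.0 members per Mb (23.5 to 139), and 5 of its 19 genes were hosts. They were Mad, the Smad of Dpp signalling (393, 610 and 547), Dad, its inhibitor (1646, 1764 and 863), Stat92E (767, 924 and 1000), and the JAK/STAT inhibitors Ptp61F (881, 1113 and 674) and Socs36E (1222, 1153 and 787). For the member in drk the nearest start was that of mars, 848 bp away. For the member in Ptp61F it was that of ru, 2261 bp away.

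RNA-binding and splicing genes were hosts in 7 of 39 with 11 members, or 39.1 per Mb (19.5 to 69.9). They were led by mub (ranks 105, 170 and 179) and mbl (471, 518 and 458). Neural and zinc finger factor genes were hosts in 4 of 30, with 31.1 members per Mb (11.4 to 67.7). Of these hosts, sim, a regulator of the midline, ranked 252, 355 and 229 and trh, a regulator of the trachea, 1704, 1810 and 1012. The third was psq and the fourth fru. Nuclear receptor and ecdysone genes were hosts in 3 of 20 (Eip63E, Hr3 and tai), with 30.7 members per Mb (8.37 to 78.7). Notch and Wnt genes were hosts in 3 of 24 (neur, arr and Notum), with 33.3 members per Mb (6.87 to 97.4). Over all genes there were 31.4 members per Mb, so the density in these last 3 lists was close to that of all genes.

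Homeodomain and segmentation genes were hosts in 2 of 37 (5.41%), with 15.1 members per Mb (1.83 to 54.6). They are hth (1275, 1347 and 728) and the Hox gene Abd-B, with a peak in replicates 1 and 3 only (3062 and 2575). Mesoderm, muscle and blood factor genes were hosts in 2 of 20, zfh1 (301, 406 and 398) and ush (868, 1109 and 1512), with 39.0 members per Mb (8.04 to 114). Ion channel, receptor and synapse genes were hosts in 3 of 38, KCNQ, Irk1 and Syn, with 23.9 members per Mb (6.51 to 61.2). For the member in Syn the nearest start was that of Timp, 652 bp away. None of 11 clock genes was a host, in 0.0369 Mb, where the upper end of the 95% Poisson interval is 100 per Mb. The intervals of the lists with few members are wide and take members as independent, although some genes held more than 1. They describe lists chosen with earlier results known and are no test.

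The windows at the summits were poor in G and C. The 101 bp at the summit had a mean GC share of 33.0% ± 9.56 (SD, n = 384 regions), and windows of the same length 500 bp to the left and right had 42.2% and 41.6%. The share was lower at the summit than in the mean of its flanks in 301 members and higher in 81 (a mean difference of -8.83 percentage points, exact sign test, two-sided, p = 7.12e-31). This and the following tests treat regions as independent. In the peaks of each replicate at the same kind of position the share was 33.4%, 33.5% and 34.6% in replicates 1, 2 and 3, a mean of 33.9% ± 0.661 (SD, n = 3), and in their flanks 42.1% ± 0.123. The 3 replicates had almost the same dip. Peaks in replicates 1, 2 and 3 were found at 362, 354 and 330 of the 384 members. The replicates thus largely sample the same places, so the SDs over replicates, here and for the words below, do not measure independent repeats.

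The dip was of like size where the flanks held no exon. In the 244 members whose flanks also lay wholly in introns, the share was 32.8% ± 9.80 at the summit and 40.7% in the flanks (a mean difference of -7.93, exact sign test, two-sided, p = 1.50e-18). Over all intron that met the rule, GC was 38.7%. The GC profile around the summits reached 32.0% in the 20 bp just left of the summit and was back at 42.9% 100 to 120 bp away. The dip had thus closed by that distance. Other classes had low GC at their summits as well, at 33.2% ± 9.74 in the far introns, 35.1% ± 10.8 in intergenic regions and 34.9% ± 10.4 at promoters.

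**Figure D4:**
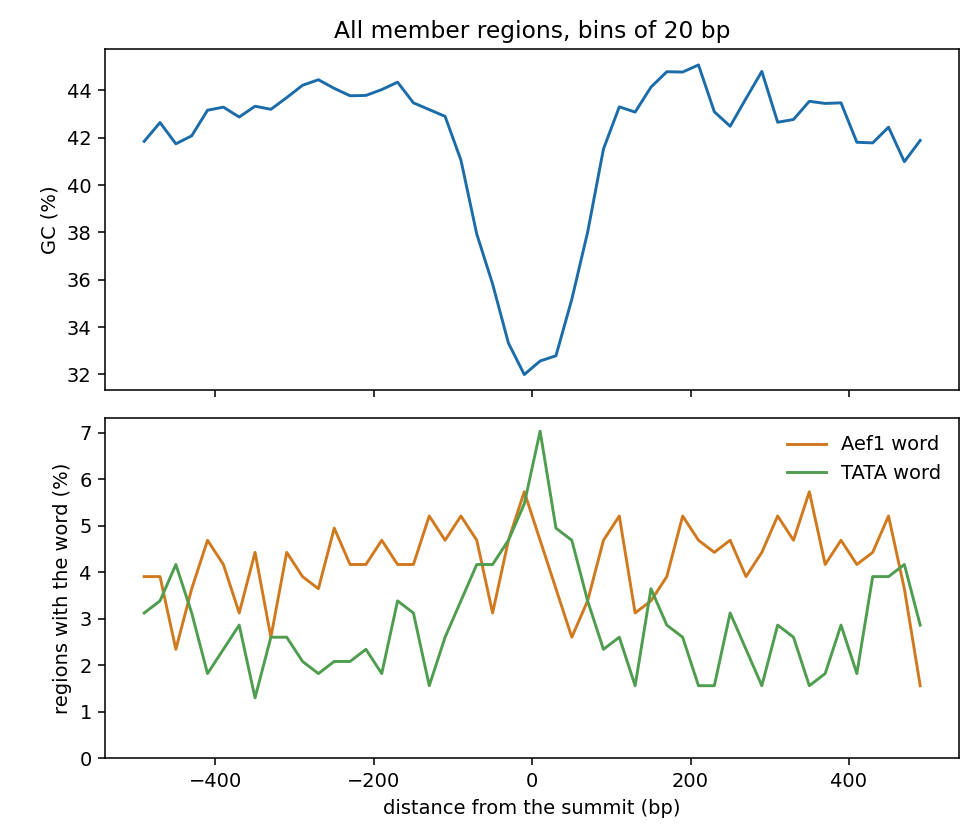
Mean GC share (top) and share of the 384 members with the Aef1 word CAACAA or the TATA word TATAAA on either strand (bottom), in bins of 20 bp, against distance from the summit. GC falls to 32.0% beside the summit, and the TATA word rises to 7.03% of members in the bin just right of it.

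The Aef1 word did not pass the test at the members' summits. CAACAA, on either strand, stood within 50 bp of the summit in 65 members (16.9%, 95% Clopper-Pearson interval 13.3 to 21.1), beside 18.1% of all autosomal regions. It stood in 48 and 49 of the left and right flanks, so the summits held 1.34 times the flanks' mean (exact McNemar test, two-sided, larger p of the flanks 0.125, or 0.358 when adjusted over 20 motifs). The tandem word CAACAACAA, which contains CAACAA, stood in 17 summits (4.43%, beside 5.47% of all autosomal regions) and in 13 and 8 flanks (exact McNemar test, p = 0.585). By replicate, CAACAA stood at 14.7%, 14.2% and 17.5% of the peaks, 1.16 ± 0.142 times their flanks (SD, n = 3). In windows of 25 bp to either side the ratio was 1.95 and passed unadjusted (exact McNemar test, p = 0.0273), while 0 of the 20 motifs passed there after adjustment. The unadjusted test also passed in regions built at an IDR of 0.05, at 1.42 (exact McNemar test, p = 0.0328), and it was 0.988 at an IDR of 0.001. For the tandem word, flanks 1000 bp away gave 4.25 (exact McNemar test, p = 0.00720, unadjusted). After adjustment over 20 motifs TATAAA alone passed at an IDR of 0.05 and with flanks 1000 bp away.

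Most members with the word had it once. Of the 65 members, 40 had 1 word, 14 had 2, 6 had 3, 3 had 4, 1 had 5 and 1 had 11, counting overlapping words on both strands. The member with 11 lay in grh, the gene of the epidermal factor Grainyhead, with a signal of 149, 101 and 109 at ranks 536, 788 and 632. Its summit was the only one on an annotated transposon. The member with 5 lay in Mapmodulin, with its summit on an exon of a noncoding gene. CG5953, with 4 words, had 168, 160 and 181, and zf30C, with 3, had 181, 132 and 175. Those in Ptp99A, the gene of a receptor phosphatase of axons, and in lilli, of the AF4 family of elongation factors, were weak, with signals from 44.1 to 62.3. The members richest in the word therefore ranged from 10.6% to 73.6% down the lists, and none was among the strongest 12. Split by strength into 4 sets of 96 members, 14 of the strongest set had a CAACAA word, then 11, 18 and 22 of the weakest.

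The words that passed were mostly made of A and T. Of 20 motifs tested against the flanks, 3 (15%) passed at an adjusted p of 0.05. These tests did not adjust for base composition, and the mean GC difference between summits and flanks was -8.83 percentage points. Whether any word differed beyond that difference in GC was not tested. TATAAA stood at 92 summits (24.0%, beside 22.8% of all autosomal regions) and in 48 and 51 flanks, 1.86 times as often (exact McNemar test with Benjamini-Hochberg adjustment over 20 motifs, adjusted p = 0.00488). By replicate, TATAAA stood at 20.9% ± 0.821 of the peaks and in 12.3% ± 0.680 of their flanks (SD, n = 3). In 12 of 15 alternative settings that call held. It ended with windows of 25 bp (1.88, adjusted p = 0.152, exact McNemar test), with flanks wholly in introns (1.75, adjusted p = 0.117, 244 members) and more than 1000 bp from a start (1.58, adjusted p = 0.474). AAAAAAA stood at 64 summits and in 37 and 39 flanks (1.68 times, adjusted p = 0.0480), and CACACACA at 4 summits and in 17 and 20 flanks (0.216 times, adjusted p = 0.0480, exact McNemar tests). These calls ended in 12 and 11 of 15 alternatives. The permuted controls AACCAA and CAAACA had ratios of 0.813 and 0.804 and did not pass.

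Over all words of 6 bases, 31 of 1962 tested (1.58%) passed against both flanks at an adjusted p of 0.05. Of these, 27 were more frequent at the summits, and 19 of the 27 held only A and T. TTAAAA led, in 149 summits beside 67 and 65 flank windows (adjusted p = 3.51e-07, exact McNemar test, Benjamini-Hochberg over 1962). It was followed by ATTTAA (115 beside 40 and 48) and ATATTA (94 beside 34 and 27). TATAAA took place 22 and CAACAA place 330. The tests of 6-base words did not adjust for base composition either.

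Peaks from 3 replicates were found in 72.4% of members (95% Clopper-Pearson interval 67.6 to 76.8) and in 61.6% (56.0 to 67.0) of the 315 intronic regions farther than 3000 bp from a start. The share was 66.1% in the 327 intergenic regions and 72.5% in the 1304 promoter regions. The rule asked for peaks in 2 or more replicates in every class, so these shares are given with no test. At an IDR of 0.001 the members were 2.44 percentage points above the far introns. The strongest 20% of autosomal regions by mean rank took 18.2% of members and 11.1% of far introns. It took 17.4% of intergenic regions and 23.3% of promoter regions. The ranks come from the same peak calls as the rule, so these shares too are given with no test. In 11 alternatives the members stood 5.21 to 8.59 percentage points above the far introns. Against promoters the difference ran from -7.47 to -3.92 points.

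In sequence, 2 of 60 comparisons of motifs between the members and a class passed. The STAT word TTCNNNGAA stood near 7 member summits (1.82%) and near 23 of those in far introns (7.30%; Fisher's exact test, two-sided, Benjamini-Hochberg over 60, adjusted p = 0.0154). That call ended in 9 of 13 alternatives. The DRE word TATCGATA stood near 0 of 384 members, which allows a share of up to 0.781% taken as 3 counts of 384, and near 40 promoter summits (3.07%, adjusted p = 0.00363, Fisher's exact test). No motif differed from promoters with windows of 25 bp, with peaks in 3 replicates, at an IDR of 0.001 or beyond 1000 bp, so the DRE call ended there. CAACAA was found in 12.4% of far introns, 19.0% of intergenic regions and 19.2% of promoter regions, with adjusted p from 0.726 to 0.918.

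**Figure D5:**
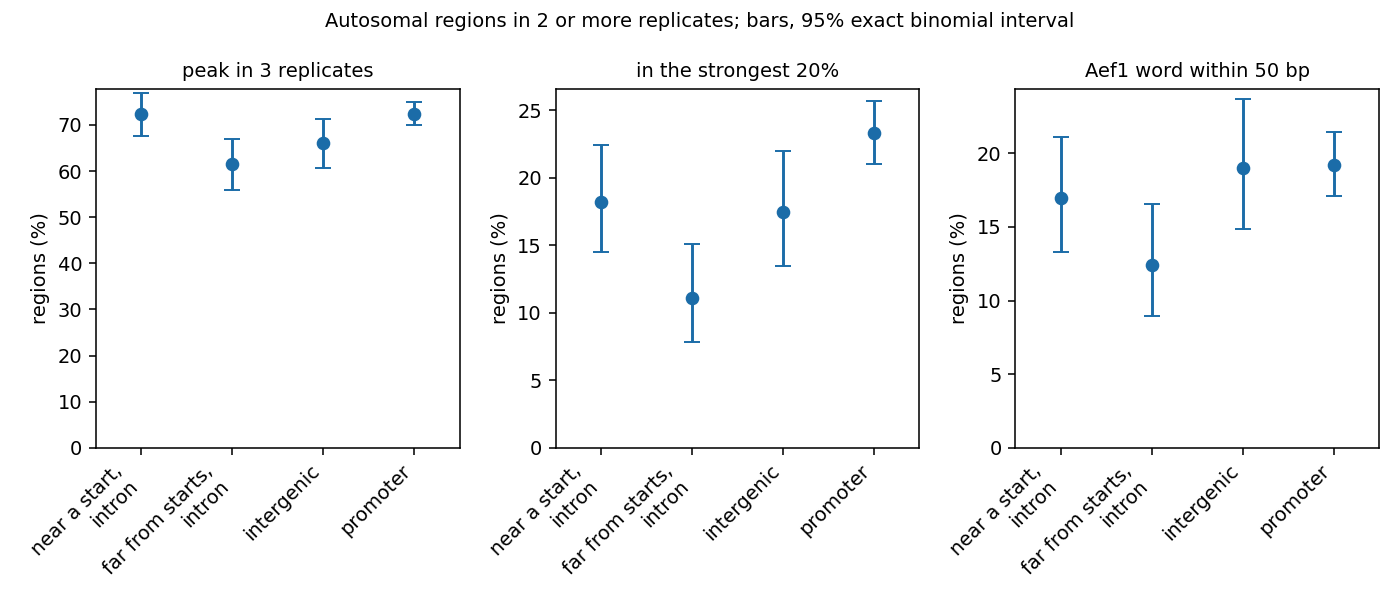
Share of regions (%) with a peak in 3 replicates (left), in the strongest 20% (middle) and with the Aef1 word CAACAA within 50 bp of the summit (right), for the 384 members, 315 far introns, 327 intergenic and 1304 promoter regions, with 95% exact binomial intervals. The members stand at 72.4%, 18.2% and 16.9%, above the far introns at 61.6%, 11.1% and 12.4%. The first and second were not tested, and the third did not pass the test.

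Another 185 regions met the rule on position but had a peak in 1 replicate only, so each of their summits came from 1 list. CAACAA stood at 10.8% of them beside 16.9% of members (Fisher's exact test, two-sided, Benjamini-Hochberg over 3 words, adjusted p = 0.0600). CAACAACAA stood at 1.08% of them beside 4.43% of members (adjusted p = 0.0600, Fisher's exact test). TATAAA was found at 14.6% of them beside 24.0% of members (adjusted p = 0.0336, Fisher's exact test). Their mean GC share was 35.6% beside 33.0%.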

How the data were processed

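Peaks came from 3 replicates of 1 group. Per the authors' file listing, each replicate's thresholded and ranked lists are on dm6 and come from its filtered alignments and a further input of unstated role. Which aligner and peak caller were used is not given in the sources used here. Each deposited score, at most 1000, is a log2 form of the global IDR, and the ranked lists deposited by the authors give −log10 of that IDR. The deposited peak signal has an unstated scale and served for ranks within each list and for describing members.

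Members were found with Ensembl release 115 gene models (BDGP assembly 6.54), using exons of protein-coding transcripts. Sequence came from the RefSeq copy of dm6, in windows of 101 bp with flanks centred 500 bp away. Where introns of several genes held a summit, the gene with the nearest start counted as host, and otherwise the shortest gene. Tests were exact McNemar, exact sign and Fisher's exact tests, two-sided, at 0.05. The scripts were tested on simulated data. Named were the 12 strongest members with peaks in 3 replicates, the 6 with most CAACAA words, genes hosting 3 or more, up to 3 hosts per gene list by rank, and members at the distance limits. Further hosts of the lists, the 6-mers and the sequences shown were chosen after their values were seen. The members and lists were chosen with earlier results of these data known. The result of 1 gene list is not reported here. Tools were Python 3.11.15, numpy 2.4.6, SciPy 1.17.1 and matplotlib 3.10.9.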

Additional observations from a re-analysis of the deposited data

How the results depend on the processing

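Each result was recomputed under up to 15 alternatives, which gave 298 values. Of these, 212 kept direction and side of the threshold or, for counts, stayed within 1.5 times the reported one. For the shares given with no test, the side was that of the adjusted p of Fisher's exact test, used for this tally alone. The GC difference kept both in all 15, from -9.85 to -5.70 points. The other changes of the main comparisons follow, and the cause was not tested for any. The number of members was 225 more than 1000 bp from a start, and 300.0 to 333 without 1 replicate. CAACAA against flanks passed, before adjustment over motifs, with windows of 25 bp (1.95) and at an IDR of 0.05 (1.42), and turned at an IDR of 0.001 (0.988). The tandem word passed before adjustment with flanks 1000 bp away (4.25). After adjustment neither word passed in these settings. The motifs that passed against flanks numbered 0 with 25 bp windows, with flanks in introns and beyond 1000 bp from a start. They numbered 1 with flanks 1000 bp away, with the overlap of 50% of the shorter peak, at an IDR of 0.05, up to 2000 bp and with exons of every transcript, and 1 to 3 without 1 replicate. Motifs that differed from far introns numbered 0 with 25 and 100 bp windows, with peaks in 3 replicates, at both other IDRs, beyond 1000 bp and up to 2000 bp, and 0 to 1 without 1 replicate. Those that differed from promoters numbered 0 with 25 bp windows, 3 replicates, an IDR of 0.001 and beyond 1000 bp, and 2 with 100 bp windows. The following are differences in percentage points, members minus the other class. For CAACAA against intergenic regions, none of which passed, the sign turned with 100 bp windows (1.99) and at an IDR of 0.05 (1.38), and ranged from -4.01 to 1.32 without 1 replicate. For the tandem word against intergenic regions it turned with 100 bp windows (0.994) and 3 replicates (1.23), with -0.989 to 2.20 without 1 replicate. Against promoters it turned with 3 replicates (0.316), with -1.41 to 0.200 without 1 replicate. For peaks in 3 replicates, given with no test, an IDR of 0.001 gave 2.44 against far introns, -4.82 against intergenic regions and -7.55 against promoters, and against promoters the value was 0.864 beyond 1000 bp and 0.0640 with exons of every transcript. For the strongest 20% of regions, given with no test, the value against far introns was 5.21 with 3 replicates. It was 6.08 at an IDR of 0.001, 5.33 beyond 1000 bp and 5.77 to 7.64 without 1 replicate. Against intergenic regions the sign turned in the same settings (-0.583, -0.402 and -0.987), with -1.87 to 0.564 without 1 replicate. Against promoters the value was -6.84 with 3 replicates and -7.47 to -5.99 without 1 replicate. For a promoter region at the nearest start, given with no test, the value against far introns was -2.31 with 3 replicates and -2.60 to 3.46 without 1 replicate. No paired analysis was possible because the series holds 1 group. Read depth is unknown, so what it limits could not be measured. Leaving out a replicate keeps regions with peaks in both others.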
